A study of Homo sapiens with 24 samples.

Results

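The genes described here are the G1 cyclins and the kinases that they activate: the D-type cyclins CCND1 and CCND3 with their partners CDK4 and CDK6, and the E-type cyclins CCNE1 and CCNE2 with their partner CDK2. These 7 genes were chosen by name, and their probes were found through the RefSeq accession that the array design gives for each probe, which yielded 8 member probes among the 50599 probes at 24 h and 8 among the 58201 at 48 h. All 7 members exceeded the background threshold at 24 h, among 36639 genes that did, and 6 of the 7 exceeded it at 48 h, among 37704 genes. The threshold, passed on at least 3 arrays, lay 3 SDs above the mean of each array's negative control spots. The member that did not pass at 48 h was CDK6.

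The RNA came from LNCaP cells, an androgen-sensitive prostate cancer line that is long established, grown in RPMI-1640 medium with fetal bovine serum and electroporated with 1 siRNA per target. The siRNA si-A1 is directed against the long non-coding RNA TAPIR-1, si-A2 against TAPIR-2, and si-SCRL is a scrambled control that the cells of the comparison group received in the same way. Each siRNA had 4 biological replicates per time point, 24 h or 48 h after transfection, giving 24 samples on 24 one-colour Agilent arrays, of which 23 were used. The array of si-A2 replicate 2 at 48 h was left out because its median intensity was 13.9, against 20.4 to 32.3 on the other arrays of 48 h and 24.4 to 57.2 on the 12 arrays of 24 h, and the number of arrays limits the precision. At 24 h all arrays were of 1 version of the platform and at 48 h all were of a later version, so time point and array version cannot be told apart, and each siRNA was compared with si-SCRL of its own time point.

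The targeted RNAs could be checked only in part. The single probe for TAPIR-2 at 24 h read 5.04 ± 0.20 (SD, n = 4) on the log2 scale in si-SCRL and 4.06 ± 0.74 (n = 4) in si-A2, a difference with p = 0.0286 in an exact two-sided permutation test, the smallest p that 4 against 4 arrays allow, and 2 of the 4 arrays of si-A2 had it well above background. In si-A1, which is not directed at TAPIR-2, it read 4.64 ± 0.32 (n = 4, exact permutation p = 0.0571). At 48 h the same probe read 4.64 ± 0.58 (n = 4) in si-SCRL and 4.68 ± 0.90 (n = 3) in the arrays labelled si-A2 (exact permutation p = 0.971), so this probe does not bear out the si-A2 label at 48 h, and on no array of 48 h did a further probe rise well above background. No probe was matched to TAPIR-1, and the si-A1 label was not checked. Markers of the cell line were present: all 12 luminal prostate genes looked at, among them KLK3 and KLK2, were well above background on all 23 arrays, and their mean log2 intensity lay between 9.47 and 10.8. Of the markers of stromal, endothelial and immune cells, 6 of the 11 on the arrays of 24 h (PECAM1, VWF, CDH5, PTPRC, CD3E and CD68) and 5 of the 10 at 48 h (DCN, VWF, CDH5, PTPRC and CD3E) were well above background on every array used. A gene was counted if any of its probes was so. In si-SCRL the endothelial gene CDH5 read 7.79 at 24 h and 9.81 at 48 h, and the leukocyte gene PTPRC 6.78 and 6.80. Probes of PTPRC disagreed: a further one at 24 h read 2.57 in si-SCRL, 1.80 in si-A1 and 1.72 in si-A2. That probe was well above background on 1 si-SCRL array and on no array of either targeting siRNA. The list mean lay between 3.61 and 4.45, COL1A2 and LUM were not well above background on any array, and none of the 9 such genes tested at 24 h or the 7 at 48 h was called in any comparison.

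Entry into S phase is governed by these genes in a known order. Mitogenic signals raise the D-type cyclins, which bind CDK4 or CDK6 and begin the phosphorylation of the retinoblastoma protein RB. Partly phosphorylated RB releases E2F transcription factors, which activate the E-type cyclins among other genes, and cyclin E bound to CDK2 then completes RB phosphorylation and helps to start DNA replication. Inhibitor proteins of the INK4 and CIP/KIP families restrain these kinases. In LNCaP cells, as in other prostate cells, androgen signalling is known to feed into the same step through cyclin D levels.

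Values of the members are given as log2 of the processed intensity after quantile normalization among the arrays of a time point. Such values compare one probe across arrays and not one gene with another. A difference is a log2 fold change from limma with its standard error (SE), n = 4 arrays a group except for si-A2 at 48 h, which had 3. A gene was called when its adjusted p (Benjamini-Hochberg over all genes tested) was below 0.01 and its log2 fold change was at least 0.5 in size. After si-A1, 3 of the 7 members were called at 24 h, and all 3 fell, while 1.03% of the 36639 genes tested were called. After si-A2 at 24 h, 2 of the 7 members were called, both lower, against 0.903% of all genes. At 48 h, 3 of the 6 members tested fell after si-A1, against 5.82% of the 37694 genes called in either direction. After si-A2 at 48 h, 0 of 6 were called in limma, against 0.443% of all genes, although 4 of the 6 had an unadjusted p below 0.05, 3 of them lower. With the replicate number as a block at 48 h, 1421 genes were called after si-A1 in place of 2193, and 0 after si-A2 in place of 167. With the dim si-A2 array kept in the limma fit of 48 h, 23 genes were called after si-A1, among them CDK2 but neither CCND1 (-1.59) nor CCNE2 (-2.65, adjusted p = 0.205), and 0 genes after si-A2. Both siRNAs were compared with the same si-SCRL arrays, so their values share the spread of those controls. The members called were CCND1, CCNE2 and CDK2, that is, 1 of each pair of cyclins and 1 of the 3 kinases.

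**Figure D1:**
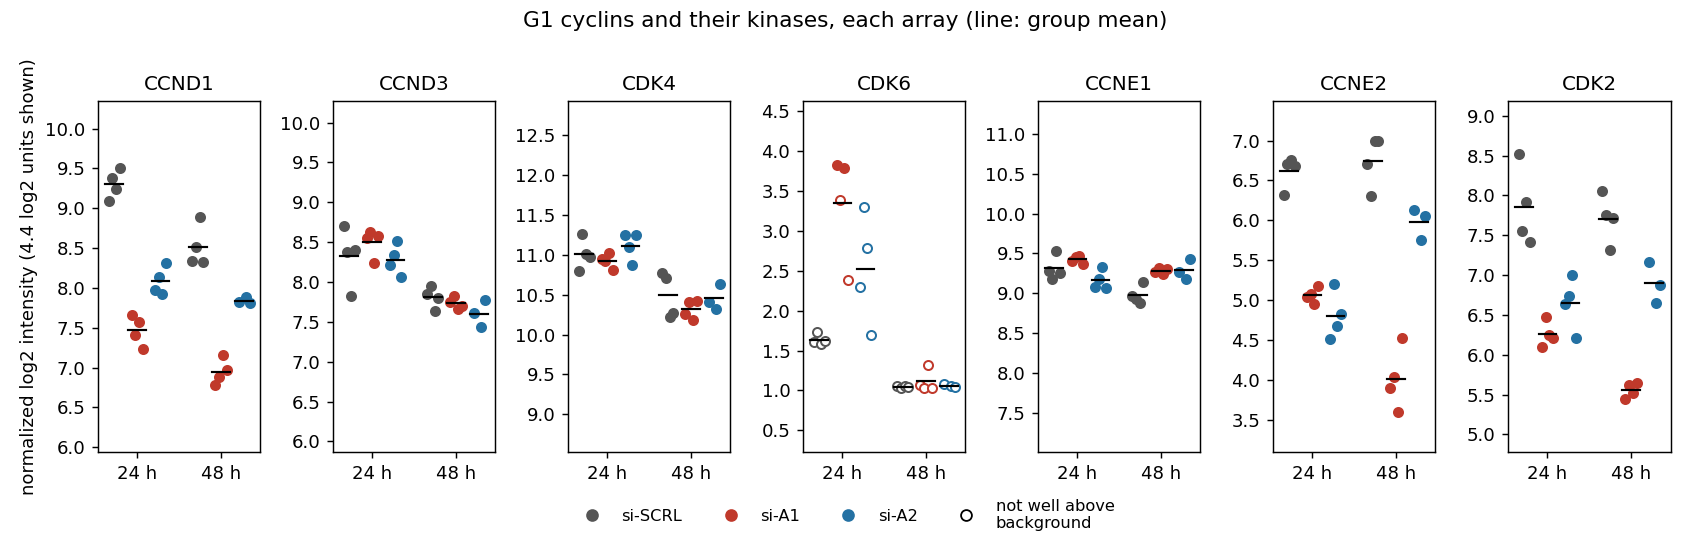
Normalized log2 intensity (y axis, 4.4 log2 units in every panel) of the 7 members on each array at 24 h and 48 h, with 1 point per array, a line at the mean of each siRNA group, and open points where the probe was not well above background. CCND1, CCNE2 and CDK2 sit lower on every si-A1 array than on every si-SCRL array at both time points, while CCND3, CDK4 and CCNE1 stay within narrow ranges and CDK6 is at background on nearly all arrays.

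CCND1 encodes cyclin D1, the D-type cyclin most often amplified in cancer, and lies at chr11:69641156-69654474 of GRCh38.p14. Its probe, A_23_P202837, is printed in 10 spots on each array. At 24 h the 4 si-SCRL arrays read 9.08, 9.38, 9.25 and 9.50, the si-A1 arrays 7.67, 7.41, 7.57 and 7.23, and the si-A2 arrays 7.97, 8.13, 7.92 and 8.31. None of the 3 groups overlapped, with si-SCRL highest and si-A1 lowest. After si-A1 the level fell by 1.84 on the log2 scale (SE 0.16, adjusted p = 0.000135), which is 3.57-fold. After si-A2 it fell by 1.22 (SE 0.16, adjusted p = 0.00179), or 2.33-fold.

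The decrease of CCND1 was present on both slides of 24 h, at -1.70 and -1.98 for si-A1 and at -1.18 and -1.26 for si-A2, with 2 arrays of each siRNA on each slide. The 24 h call after si-A2 was lost without si-A2 replicate 3 (-1.15, adjusted p = 0.0101), with a filter on the interquartile range (adjusted p = 0.0146) and with si-SCRL and si-A2 alone in the fit (adjusted p = 0.0160).

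At 48 h CCND1 read 8.34, 8.52, 8.89 and 8.32 on the si-SCRL arrays, 6.78, 6.88, 7.16 and 6.97 on the si-A1 arrays, and 7.82, 7.89 and 7.80 on the 3 si-A2 arrays. The order of the groups was as at 24 h, again without overlap. The decrease after si-A1 was 1.57 (log2 fold change -1.57, SE 0.13, adjusted p = 0.000137). After si-A2 the difference was -0.71 (SE 0.14, adjusted p = 0.0370) and was not called. With normexp background correction in place of Agilent's subtraction, the same difference was -0.56 and was called (adjusted p = 0.00825). Because RNA was measured in bulk, fewer cells in a part of the cycle that carries a transcript cannot be told apart from less of that transcript in each cell, here and for every gene below.

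CCND3 encodes cyclin D3, the other D-type cyclin on the list, at chr6:41934933-42050035. Its values did not separate the groups. At 24 h si-SCRL read 8.70, 8.38, 7.82 and 8.40, si-A1 8.55, 8.62, 8.24 and 8.58, and si-A2 8.21, 8.34, 8.51 and 8.06, all within a single overlapping range. The differences were 0.17 after si-A1 (95% interval -0.23 to 0.58) and -0.05 after si-A2 (-0.45 to 0.36). At 48 h si-SCRL read 7.84, 7.95, 7.63 and 7.80, si-A1 7.75, 7.82, 7.66 and 7.69, and si-A2 7.61, 7.43 and 7.77. The corresponding differences were -0.07 (-0.29 to 0.15) and -0.18 (-0.42 to 0.06). These intervals leave out a fall of the size seen for CCND1 at either time point, and none of the 4 comparisons was called.

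CDK4, the main kinase partner of the D-type cyclins in epithelial cells, lies on the minus strand at chr12:57747727-57752310. At 24 h it read 10.80, 11.27, 11.01 and 10.98 in si-SCRL, 10.95, 10.92, 11.02 and 10.81 in si-A1, and 11.24, 11.10, 10.87 and 11.25 in si-A2. At 48 h the values were 10.78, 10.71, 10.23 and 10.28 in si-SCRL, 10.26, 10.41, 10.19 and 10.42 in si-A1, and 10.41, 10.32 and 10.64 in si-A2. The groups overlapped at both time points. The differences were -0.09 after si-A1 and 0.10 after si-A2 at 24 h, and -0.18 and -0.01 at 48 h, with 95% intervals that reach no further than -0.49 and 0.42. Scaling on the 75th percentile turned the sign of the 24 h si-A1 difference (0.02) and of the 48 h si-A2 difference (0.05), so neither had a direction.

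CDK6, the related kinase that D-type cyclins also activate, lies at chr7:92604921-92836573 and was close to background. At 24 h its probe read 1.60, 1.73, 1.58 and 1.61 in si-SCRL, 3.83, 3.39, 3.79 and 2.38 in si-A1, and 2.30, 3.31, 2.79 and 1.69 in si-A2. It was well above background only on si-A1 replicates 1 and 3, and it passed the threshold only through the arrays of the 2 targeting siRNAs. Neither siRNA's difference from si-SCRL was called, and no fold is given, since no si-SCRL or si-A2 array had a measured level. At 48 h the probe read between 1.03 and 1.32 on all 11 arrays and was well above background on none, so only a bound is known there and it was not tested.

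CCNE2 encodes cyclin E2 and lies at chr8:94880224-94896693. Its brighter probe, A_33_P3217819, read 6.32, 6.71, 6.75 and 6.68 in si-SCRL at 24 h, 5.04, 5.08, 4.96 and 5.17 in si-A1, and 4.51, 5.20, 4.67 and 4.82 in si-A2. Every array of either targeting siRNA lay below every si-SCRL array, and the 2 targeting siRNAs overlapped with each other. In si-A1 the level fell by 1.56 (SE 0.17, adjusted p = 0.000675), or 2.94-fold. In si-A2 it fell by 1.82 (SE 0.17, adjusted p = 0.000231), or 3.52-fold. The differences were -1.46 and -1.65 on the 2 slides for si-A1, and -1.66 and -1.97 for si-A2.

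At 48 h CCNE2 read 6.71, 6.30, 6.99 and 7.0 in si-SCRL, 3.90, 4.04, 3.59 and 4.52 in si-A1, and 6.13, 5.76 and 6.05 in si-A2. The si-A1 arrays stood apart from both other groups, and the si-A2 arrays lay just below the lowest si-SCRL array. After si-A1 the level fell by 2.74 (SE 0.22, adjusted p = 0.000115), which is 6.66-fold and the largest decrease among the members. The si-A2 difference of -0.80 (SE 0.24, adjusted p = 0.136) was not called. The sizes depend on the background: with normexp correction the 4 differences were -0.78 and -0.89 at 24 h and -1.11 and -0.43 at 48 h, and the same 3 of the 4 were called.

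A further CCNE2 probe, A_33_P3247022, gave a further reading of the same gene on the same arrays. At 24 h it read 5.13, 4.95, 6.14 and 6.09 in si-SCRL, 4.00, 4.15, 4.31 and 3.58 in si-A1, and 1.94, 3.29, 3.14 and 3.08 in si-A2, all 4 of them below the mark for a signal well above background. Its level was therefore at least 2.93-fold lower after si-A2, with the floor taken as the lowest signal well above background on each array. The limma test was of the measured difference of -2.71 (adjusted p = 0.00104), which includes readings below that floor, and not of this bound. The si-A1 difference of -1.57 had an adjusted p of 0.0284 and was not called. At 48 h the differences were close to those of the brighter probe, with -2.56 (adjusted p = 0.000164) for si-A1 and -0.83 for si-A2, the latter not called (adjusted p = 0.121).

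CCNE1 encodes cyclin E1, which binds the same kinase as cyclin E2, at chr19:29811991-29824312. It read 9.28, 9.17, 9.54 and 9.25 in si-SCRL at 24 h, 9.41, 9.45, 9.46 and 9.37 in si-A1, and 9.08, 9.17, 9.33 and 9.06 in si-A2. The groups overlapped, and the differences were 0.11 (SE 0.12) and -0.15 (SE 0.12). At 48 h the si-SCRL arrays read 8.97, 8.93, 8.88 and 9.15, the si-A1 arrays 9.26, 9.32, 9.24 and 9.31, and the si-A2 arrays 9.26, 9.18 and 9.42. Both targeting siRNAs lay above all si-SCRL arrays at 48 h, the si-A1 group by 0.30 (SE 0.09, adjusted p = 0.0588) and the si-A2 group by 0.31 (SE 0.10, adjusted p = 0.169). Neither passed the test, and neither reached the log2 fold change of 0.5. In each of the 3 comparisons in which CCNE2 fell, CCNE1 was not called.

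CDK2, the kinase that cyclin E activates, lies at chr12:55966830-55972789, and its probe, A_23_P98898, has 10 spots on the 24 h arrays and 1 on the 48 h arrays. At 24 h it read 8.51, 7.55, 7.92 and 7.42 in si-SCRL, 6.10, 6.47, 6.25 and 6.21 in si-A1, and 6.64, 6.74, 7.0 and 6.21 in si-A2. Both targeting siRNAs lay below all si-SCRL arrays, among which replicate 1 was the highest. The level fell by 1.59 after si-A1 (SE 0.24, adjusted p = 0.00561), or 3.02-fold. After si-A2 the difference was -1.21 (SE 0.24, adjusted p = 0.0338) and was not called.

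That 24 h call after si-A1 was narrow. It was lost when si-SCRL replicate 1 or 3, any of the 4 si-A1 replicates, or si-A2 replicate 1 or 2 was left out, with adjusted p between 0.0114 and 0.0241, and the difference then lay between -1.64 and -1.38. It was also lost with only si-SCRL and si-A1 in the fit (adjusted p = 0.0299).

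At 48 h CDK2 read 8.06, 7.75, 7.31 and 7.71 in si-SCRL, 5.45, 5.63, 5.52 and 5.64 in si-A1, and 7.16, 6.66 and 6.88 in si-A2. The 3 groups did not overlap, and the si-A1 arrays differed among themselves by little. After si-A1 the level fell by 2.15 (SE 0.14, adjusted p = 5.79e-05), or 4.43-fold, with -2.37 and -1.93 on the 2 slides. The si-A2 difference of -0.77 (SE 0.16, adjusted p = 0.0388) was not called, but with normexp correction it was -0.56 and was called (adjusted p = 0.00821). With that correction the si-A1 difference at 48 h was -1.33.

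**Figure D2:**
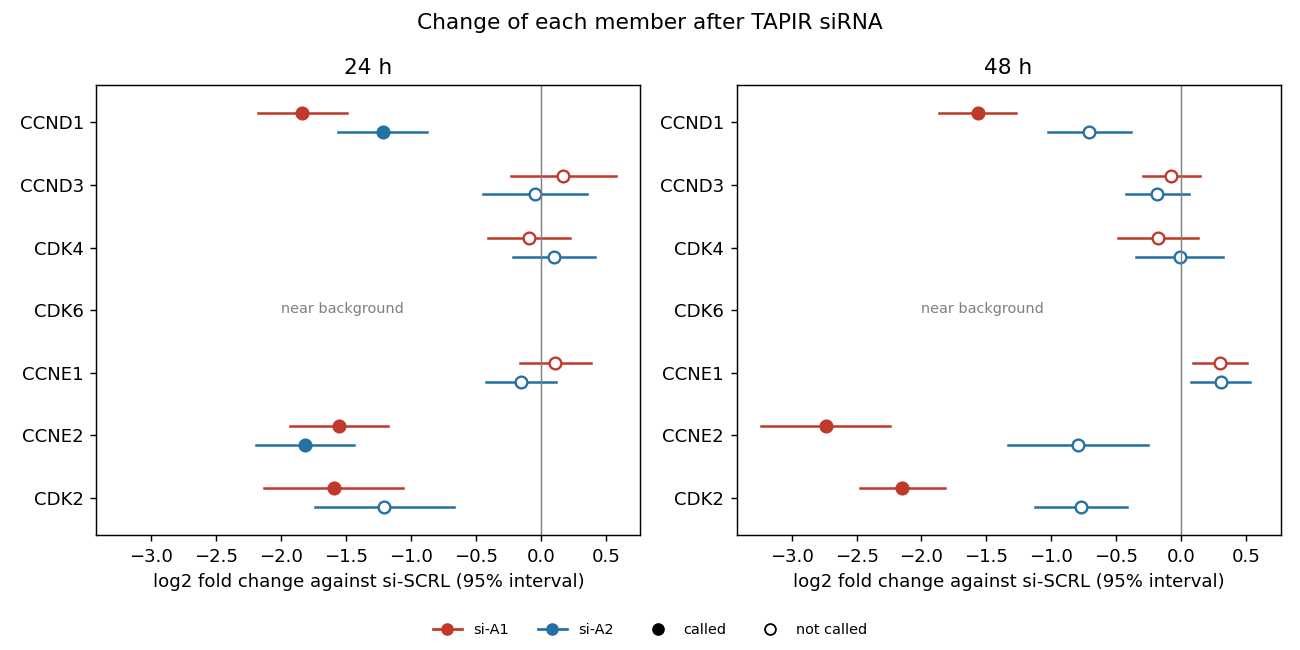
Log2 fold change of each member against si-SCRL (x axis) with its 95% interval, for si-A1 and si-A2 at 24 h (left) and 48 h (right), filled where called. CCND1, CCNE2 and CDK2 lie between -1.21 and -1.84 at 24 h, and at 48 h they lie between -1.57 and -2.74 after si-A1 but only between -0.71 and -0.80 after si-A2. CCND3 and CDK4 lie near 0. CCNE1 lies near 0 at 24 h and at 0.30 (si-A1) and 0.31 (si-A2) at 48 h, with intervals above 0 but not called. CDK6 was near background and is not plotted.

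The 2 targeting siRNAs were also compared with each other. At 24 h, 0 of the 7 members were called in limma between si-A2 and si-A1, against 0.308% of all genes, and 2 had an unadjusted p below 0.05. Those were CCND1, which was 0.62 higher on the log2 scale after si-A2 (adjusted p = 0.104), and CDK6, which was near background. At 48 h, 2 of the 6 members were called, against 1.34% of all genes, and both had the higher level in si-A2. CCNE2 was 1.94 higher (SE 0.24, adjusted p = 0.00384), or 3.84-fold, and its further probe was 1.73 higher (adjusted p = 0.00588). CDK2 was 1.38 higher (SE 0.16, adjusted p = 0.00290), or 2.60-fold, and CCND1 was 0.86 higher but not called (adjusted p = 0.0118).

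These 48 h calls between the siRNAs rested on few arrays. With the replicate number as a block, 208 genes in place of 506 were called, the CCNE2 call was lost (1.90, adjusted p = 0.0107) and the CDK2 call was kept (1.36, adjusted p = 0.00969). Neither was called without si-A2 replicate 1, without si-A2 replicate 4, without si-A1 replicate 2 or without si-A1 replicate 3, and 1 was called without si-A1 replicate 1. With the dim si-A2 array kept in, neither was called (1.12 for CCNE2 and 1.27 for CDK2), and CCND1 stood at -0.50.

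An interaction term in limma asked whether an effect differed between the time points, over the genes that were above the threshold on both array versions. For si-A1, 0 of the 6 members were called in limma, against 0.178% of the 30254 genes tested, and 1 had an unadjusted p below 0.05. That member was CCNE2, whose si-A1 effect was 1.07 further below 0 at 48 h (interaction -1.07, SE 0.27, adjusted p = 0.0743). For si-A2, 0 of the 6 were called, against 0.0364% of the 30257 genes tested, with 3 at an unadjusted p below 0.05. The si-A2 effect was closer to 0 at 48 h by 1.07 for CCNE2 (adjusted p = 0.264) and by 0.54 for CCND1 (adjusted p = 0.559), and for CCNE1 it was 0.46 higher (adjusted p = 0.438). None of these passed the test.

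To ask whether 2 D-type cyclins, 2 E-type cyclins or 2 kinases changed unequally, 1 member was subtracted from another on the same array. The difference was compared between each targeting siRNA and si-SCRL. A shift common to a whole array drops out of such a difference. The pairs were chosen with earlier results of these data known, and the arrays are those of the limma calls. The differences are therefore a description of those calls and no independent support for them. There were 16 such tests, from 4 pairs, 2 siRNAs and 2 time points, each an exact two-sided permutation test, with Benjamini-Hochberg adjustment over the 16. The smallest p is 0.0286 for 4 against 4 arrays and 0.0571 for 3 against 4, so that no si-A2 difference at 48 h could pass 0.05. For CCND1, CCNE2 and CDK2, 9 of these differences reached the smallest p of 0.0286, with groups that did not overlap. Their adjusted p was 0.0458, but that value counts the difference of CDK6 and CDK4 after si-A1 at 24 h among those at the smallest p, and CDK6 had no measured level in si-SCRL. Where that difference was not at the smallest p, as with normexp correction, the adjusted p of the 9 was 0.0508, so whether they pass 0.05 rests on a probe at background.

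CCND1 relative to CCND3 was lower than in si-SCRL at 24 h, with log2 differences of -2.01 for si-A1 and -1.17 for si-A2, and at 48 h the si-A1 difference was -1.49. CCNE2 relative to CCNE1 gave -1.67 after si-A1 and -1.67 after si-A2 at 24 h, and -3.04 after si-A1 at 48 h. CDK2 relative to CDK4 gave -1.51 and -1.31 at 24 h, and -1.97 after si-A1 at 48 h. For si-A2 at 48 h the 3 differences were -0.48, -1.08 and -0.77, each without overlap with si-SCRL and each at the smallest p that 3 against 4 arrays allow (exact permutation p = 0.0571, adjusted p = 0.0703). With normexp correction the 9 differences lay between -0.76 and -1.75, and with no background correction between -0.74 and -1.75. All 9 kept the smallest p in the exact permutation test, with an adjusted p of 0.0508.

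**Figure D3:**
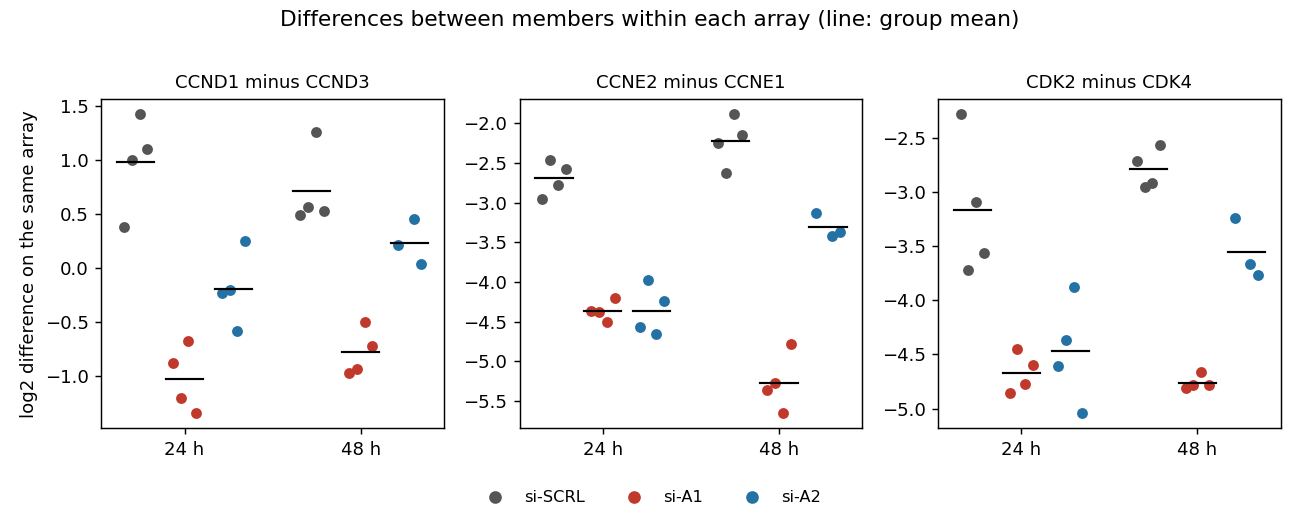
Log2 difference between 2 members on the same array (y axis) for 3 pairs at 24 h and 48 h, with 1 point per array and a line at the mean of each siRNA group. The si-A1 points lie below all si-SCRL points for CCND1 minus CCND3, CCNE2 minus CCNE1 and CDK2 minus CDK4 at both time points, by means of -1.49 to -3.04.

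The other genes of the pathway were taken from lists drawn up by function, and were read against the same background of 1.03% and 0.903% of genes called at 24 h and 5.82% and 0.443% at 48 h, for si-A1 and si-A2 respectively. Among the 7 CDK inhibitors tested, 1 fell after si-A1 at 24 h, 1 fell and 1 rose after si-A2 at 24 h, 1 fell and 1 rose after si-A1 at 48 h, and 1 fell after si-A2 at 48 h. Their median log2 fold change was 0.02, -0.36, -0.19 and -0.30 in that order, while that of all genes was 0.05, 0.05, 0.06 and 0.01. The inhibitor that fell each time was CDKN2C, which encodes the INK4 protein p18 that binds CDK4 and CDK6. Its log2 fold changes were -1.19 for si-A1 and -1.37 for si-A2 at 24 h (adjusted p = 0.00259 and 0.000986), and -1.66 and -1.43 at 48 h (adjusted p = 0.000120 and 0.00399). Leaving out 1 array at a time ended its call for si-A1 at 24 h in 4 of 12 cases and for si-A2 at 48 h in 8 of 11, and the replicate block ended the latter too.

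The inhibitor that rose was CDKN1A, which encodes the CIP/KIP protein p21, a transcriptional target of p53. It was 1.79 higher after si-A2 at 24 h (SE 0.15, adjusted p = 0.000102) and 2.10 higher after si-A1 at 48 h (SE 0.18, adjusted p = 0.000152). The other 2 comparisons were not called, with 0.68 for si-A1 at 24 h (adjusted p = 0.0465) and 1.21 for si-A2 at 48 h (adjusted p = 0.0182). Between the targeting siRNAs at 24 h it was 1.12 higher in si-A2 (adjusted p = 0.00636). Of the other 5 inhibitors none was called after either siRNA. CDKN1B, which encodes p27, gave -0.56, -0.40, -0.20 and -0.30 in the order above, CDKN1C 0.15, -0.62, 0.20 and -0.41, CDKN2A 0.41, -0.12, -0.19 and -0.28, and CDKN2B 0.02, -0.36, 0.24 and 0.33. CDKN2D, with -0.21, -0.13, -2.29 and -1.47, came nearest to the threshold after si-A1 at 48 h (adjusted p = 0.0141). Its probe was well above background on 2 of 4 arrays in each group at 24 h. At 48 h it was so on 4 of 4 si-SCRL, 1 of 4 si-A1 and 1 of 3 si-A2 arrays. CDKN2B was well above background at 48 h on 1 si-SCRL, 2 si-A1 and 1 si-A2 arrays, so background limits the sizes of both.

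Of 12 tested genes of the RB pocket proteins and E2F factors, 2 fell and 1 rose after si-A1 at 24 h, 3 fell after si-A2 at 24 h, 4 fell and 2 rose after si-A1 at 48 h, and none was called after si-A2 at 48 h. The activating factor E2F1 had log2 fold changes of -2.46 for si-A1 and -3.23 for si-A2 at 24 h (adjusted p = 6.58e-05 and 1.21e-05), and of -2.69 for si-A1 at 48 h. E2F2, also an activator, fell by 2.21 after si-A1 at 24 h. It was not well above background on the si-A2 arrays of 24 h or the si-A1 arrays of 48 h, and was at least 4.39-fold and at least 6.16-fold lower there. E2F5, which acts with the pocket proteins in repression, rose by 1.16 on si-A1 arrays at 24 h and by 0.58 at 48 h. The atypical repressor E2F7 rose by 1.06 after si-A1 at 48 h, but the median over its probes turned the direction (-0.80). The calls of E2F1 and E2F2 held with any 1 array left out, whereas those of E2F5 were lost in 5 of 12 cases at 24 h and 10 of 11 at 48 h, and that of E2F7 in 9 of 11.

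The pocket protein gene RBL1 fell by 0.94 after si-A2 at 24 h, and the E2F partner TFDP1 fell by 0.65 after si-A1 at 48 h, calls that were lost in 9 of 12 and 5 of 11 cases with an array left out. RB1 itself was called lower after si-A1 at 48 h (-1.77, adjusted p = 0.000673), but its probe was well above background on only 1 of the 4 si-SCRL arrays and on none of si-A1. The median of the list was -0.33, -0.24, -0.32 and -0.10 for the 4 comparisons in the same order.

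Genes for the activation of the kinases and the turnover of cyclins, 16 of them tested, had 2 that fell after si-A1 and 1 that fell after si-A2 at 24 h, and 3 that fell and 1 that rose after si-A1 at 48 h, with none called after si-A2 at 48 h. SKP2, the F-box protein that marks p27 for degradation, gave -2.11 for si-A1 at 24 h and -2.10 at 48 h. CKS1B, its cofactor and a CDK-binding protein, gave -1.16 for si-A1 and -1.0 for si-A2 at 24 h, and -2.54 for si-A1 at 48 h. The SKP2 calls held with any 1 array left out, and the CKS1B call for si-A2 at 24 h was lost in 5 of 12 cases. The related CKS2 was at least 4.31-fold lower after si-A1 at 48 h. Its adjusted p in limma, 5.79e-05, belongs to the measured difference and not to this bound. CRYAB, a small heat shock protein that takes part in cyclin D1 degradation, rose by 0.75 after si-A1 at 48 h.

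Of the cyclins and CDKs outside the 7 members, 3 of 33 fell after si-A1 and 2 of 33 after si-A2 at 24 h, and 6 of 31 after si-A1 and 1 of 31 after si-A2 at 48 h, and none rose. CCNA2, the S phase partner of CDK2, was the gene called all 4 times, with -1.36 and -1.53 at 24 h and -2.79 and -1.62 at 48 h. CDK1, the mitotic kinase, was called 3 times, with -2.41 and -2.27 at 24 h and -3.49 for si-A1 at 48 h. CCNB2, a B-type cyclin partner of CDK1, was called for si-A1 only, with -1.76 at 24 h and -3.54 at 48 h. Another such partner, CCNB1, was not called at 24 h, where it read 10.75 in si-SCRL, 11.08 in si-A1 and 11.01 in si-A2. After si-A1 at 48 h CCNF was also at least 2.36-fold lower, and CDK16 (-0.96) and CDK10 (-0.58) fell. With an array left out, the CCNA2 call for si-A2 at 48 h was lost in 11 of 11 cases, the CDK1 calls at 24 h in 4 and 5 of 12, the CCNB2 call at 24 h in 6 of 12 and the CCNF call in 7 of 11.

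Among the genes of mitogenic input to the D-type cyclins, none of 14 was called at 24 h, and at 48 h 3 of 13 fell after si-A1 and none after si-A2. They included the transcription factor SP1 (-1.31) and CTNNB1 (-0.86), which encodes beta-catenin, and with an array left out the SP1 call was lost in 11 of 11 cases.

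**Figure D4:**
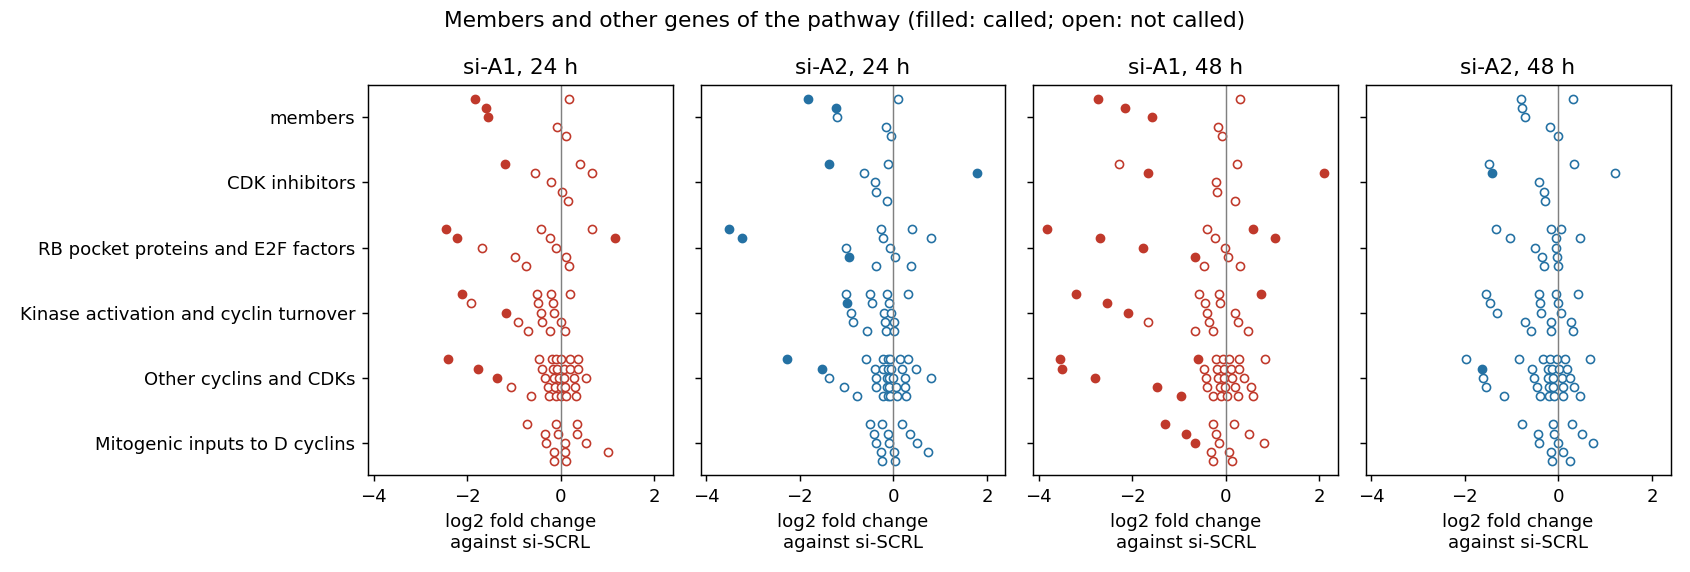
Log2 fold change against si-SCRL (x axis) of every tested member and list gene except CDK6, in 1 panel per siRNA and time point and 1 row per list, with 1 point per gene, filled where called. Called points lie mostly below 0, and the fewest are filled for si-A2 at 48 h, where only CDKN2C and CCNA2 were called.

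At 48 h the si-A1 arrays also differed in luminal genes, which were not on the pathway lists. Of 12 markers, 3 fell, against 3.66% of all genes called lower, among them SLC45A3 (-1.31) and KLK2 (-1.07). Both of these calls were lost with no slide term, and that of KLK2 also with the median over its probes. The part of the luminal genes in the values of the members was not tested. None of the 12 was called after si-A2 at 48 h or after either siRNA at 24 h.

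For each member, the 3 genes whose values followed it most closely over the 12 arrays of 24 h were listed as a description, with Pearson's r. The arrays share their siRNA groups and slides, so a gene that differs between the groups in the same way has a high r. CCND1 was followed by TYMS (r = 0.98 at 24 h and 0.91 over the 11 arrays of 48 h), which makes thymidylate, NCAPD2 (0.98 and 0.94), a condensin subunit, and DSN1 (0.98 and 0.92), a kinetochore protein. CCNE2 was followed by the replication factor CDC45 (0.98 and 0.91), the mitotic motor KIF15 (0.98 and 0.96) and the histone gene H2AC16 (0.98 and 0.92). For CDK2 they were SECISBP2L (0.95 and 0.43), WDR62 (0.95 and 0.84) and LAMB2P1 (0.94 and 0.12), so that only WDR62 kept a high r at 48 h.

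The members with little change had neighbours, picked for a high r at 24 h, of which only AURKAIP1 kept a fairly high r at 48 h. For CCND3 they were DCLK2 (0.98 and 0.48), RSPH9 (0.94 and -0.10) and NPY4R (0.94 and 0.26), for CDK4 AURKAIP1 (0.94 and 0.76), DAD1 (0.94 and 0.01) and SPCS1 (0.91 and -0.04), and for CCNE1 VARS2 (0.94 and -0.22), PPP1R10 (0.92 and -0.34) and CLDN23 (0.90 and -0.25). CDK6 was followed at 24 h by PDGFD (0.92), BEND5 (0.90) and CRYBB3 (0.90), from values mostly at background. Among the members, CCND1 and CCNE2 had r = 0.87 at 24 h and 0.93 at 48 h, and CCND1 and CDK2 had 0.82 and 0.92.

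Promoters of the members were looked up in RefSeq (GRCh38.p14), where 4 of the 7 matched, CCND3, CDK4, CDK6 and CCNE1, with 7 start sites among them. The 250 bases before each start were searched on both strands for letters known from cell-cycle promoters: the E2F-type sites TTTCCCGC, TTTGGCGC, TTTGCCGC and TTTCGCGC, the CHR elements TTTGAA and TTTAAA, and the E-box CACGTG. None of the 7 windows held an E2F-type site, which 2.79% of 35116 promoters of the same length hold. At so low a share, finding none in 7 windows tells little about these genes. CCND1, CCNE2 and CDK2 had no entry, so members that fell could not be compared with the others. The windows of CCNE1 and CDK4 are shown because they were the only ones of the 7 in which any of these letters were found. In the window of CCNE1 (chr19:29811741-29811990, plus strand) the capitals mark a CHR element 28 bases before the start, a class that 21.9% of promoters hold. In that of CDK4 (chr12:57752311-57752560, minus strand) they mark 3 E-boxes, 216, 196 and 101 bases before the start, a motif that 6.34% of promoters hold. A match is a stretch of letters and not a measured site.
CCNE1: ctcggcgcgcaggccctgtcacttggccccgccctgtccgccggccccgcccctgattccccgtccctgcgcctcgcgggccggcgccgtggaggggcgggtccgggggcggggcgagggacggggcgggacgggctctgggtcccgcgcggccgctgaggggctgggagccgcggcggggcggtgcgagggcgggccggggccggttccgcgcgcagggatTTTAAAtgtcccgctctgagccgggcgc
CDK4: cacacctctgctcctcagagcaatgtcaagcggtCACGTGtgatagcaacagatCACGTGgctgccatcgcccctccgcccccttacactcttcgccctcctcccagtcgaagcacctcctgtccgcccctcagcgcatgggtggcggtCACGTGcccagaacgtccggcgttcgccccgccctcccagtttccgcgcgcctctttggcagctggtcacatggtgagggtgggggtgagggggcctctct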

How the data were processed

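RNA of 24 LNCaP samples, 4 per siRNA and time point, was measured on one-colour Agilent arrays, and samples were grouped by the siRNA, time and replicate in their labels. The authors deposited Feature Extraction 11.5.1.1 output, whose processed signal, a linear intensity per spot, already has the background of its own array subtracted, and a table of log2 values, which are log2 processed intensities quantile-normalized by the authors. The submitters' processing notes name R 3.4.3 and limma 3.34.8.

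The log2 processed intensity was quantile-normalized per time point, control and outlier spots were set aside, and repeated spots of a probe were averaged. Probes were kept where at least 3 arrays lay more than 3 SDs above the mean of their negative controls, and the brightest such probe stood for a gene. Models were fitted with limma 3.58.1 (statmod 1.5.0, data.table version 1.17.8, R 4.3.3) with the slide as an additive term, Benjamini-Hochberg adjustment over all genes tested, and calls at adjusted p below 0.01 with a log2 fold change of 0.5 or more. The difference between time points was an interaction over 23 arrays normalized together. The array of 48 h si-A2 replicate 2 was left out. Symbols and coordinates came from RefSeq accessions on GRCh38.p14.

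The members, gene lists, tests and alternatives were chosen with earlier results of these data known. The text names all members, the list genes called against si-SCRL apart from a few that are not reported here, all CDK inhibitors, and the 3 genes with the highest r to each member at 24 h. Alternatives comprised normexp with an offset of 50 on the median signal and median background, no background correction, 75th percentile scaling, the authors' log2 values, other slide terms, filters and rules for probes, a fold threshold of 1 on the log2 scale, only the groups compared, the dim array kept in, and each array left out in turn.

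Replicate numbers were checked for pairing by correlating deviations from group means. At 24 h the same-numbered arrays had r between -0.15 and 0.15 and were not paired. At 48 h all 10 same-numbered pairs had r between 0.19 and 0.37. After removal of the slide, which holds replicates 1 and 2 or 3 and 4, r lay between -0.26 and -0.01. Pairing by number at 48 h was therefore not seen apart from the slide. The main fit held the slide as a term, and the exact permutation tests held no block. The replicate number was used as a block only in an alternative.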

Additional observations from a re-analysis of the deposited data

Results flagged for a closer look

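In each group of 4 arrays, the gap between the most extreme value and its nearest neighbour was divided by the range of the group and set against Dixon's critical value for 4 samples, in 35 groups over the members. CCNE2 in si-SCRL replicate 1 at 24 h, with a log2 value of 6.32, stood below the other 3 arrays of its group (6.71, 6.75 and 6.68), with a ratio of 0.836. CDK6 in si-A1 replicate 3 at 48 h, with 1.32, stood above the other 3 (1.07, 1.04 and 1.04), with a ratio of 0.869, and was not well above background on that array. Chance alone marks about 1 group in 20. Without si-SCRL replicate 1 of 24 h, CCNE2 was still called after both siRNAs, with differences of -1.67 (si-A1) and -1.93 (si-A2).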

How the results depend on the processing

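CCND1 and CCNE2 were called lower after si-A1 at 24 h, and CCNE2 after si-A2 at 24 h, under every alternative with 1 value per gene. With every probe on its own, the brighter CCNE2 probe was called after both siRNAs at 24 h. The further CCNE2 probe was then called after si-A2 but not after si-A1 (-1.57, adjusted p = 0.0284). At 24 h the number of members called after si-A1 was 2 or 3 under all alternatives, and with each array left out (2 to 3). The replicate number as a block, which does not pair the arrays of 24 h, left CDK2 at -1.59 and adjusted p = 0.0114. After si-A2 at 24 h, 1 member was called with the interquartile filter, 1 with only the groups compared, and 1 to 2 with an array left out. After si-A1 at 48 h, 3 were called with each array left out (3 to 3), and 1, CDK2, with the dim si-A2 replicate 2 kept in. After si-A2 at 48 h, 2 were called (CCND1 and CDK2) with normexp and 2 with no background correction, and 0 with any array left out. Between si-A2 and si-A1 at 48 h, 1 was called with the replicate block, 0 with only the groups compared, 0 with the dim array kept in, and 0 to 3 with an array left out. The block changed no other call of a member at 48 h. Of the within-array differences, 0 passed with normexp, 0 with no background correction, 12 with the dim array kept in, and 0 to 10 with an array left out. No test of 3 against 4 arrays can pass 0.05, and fewer tests at the smallest p raise the adjusted p of the untouched ones, which went from 0.0458 to 0.0508 with normexp and with no background correction. The number of genes called ranged over the alternatives from 136 to 531 (si-A1), 152 to 422 (si-A2) and 17 to 312 (si-A2 against si-A1) at 24 h. At 48 h it ranged from 23 to 2761, 0 to 600 and 0 to 832, with the lowest numbers when the dim array was kept in. With the dim array left out, 0 genes were also called at 48 h after si-A2 with the replicate block. With only the groups compared, 0 were called at 48 h after si-A2 and 0 between the siRNAs. With an array left out the number of genes called ranged from 198 to 321, 211 to 326 and 27 to 253 at 24 h, and from 1094 to 2288, 1 to 72 and 20 to 442 at 48 h. Of the list genes called against si-SCRL, 22 of 24 calls for si-A1 at 48 h and both for si-A2 at 48 h were lost with the dim array kept in, and 4 of 24 and both with the replicate block. Signs turned for values near 0, with the dim array, and for E2F7 after si-A1 at 48 h, which became -0.80 with the median over its probes. On the log2 scale, CDK4 became 0.015 with 75th percentile scaling (si-A1, 24 h), and for si-A2 at 48 h it became 0.050 with that scaling, 0.0022 with normexp, 0.0028 with no background correction, 0.0098 with the replicate block, 0.0037 with only the groups compared, and lay between -0.13 and 0.11 with an array left out. CCNE1 between si-A2 and si-A1 at 48 h became -0.012 with normexp and -0.016 with no background correction, and lay between -0.059 and 0.062 with an array left out. CCND3 after si-A2 at 24 h lay between -0.20 and 0.060 with an array left out. The change over time with an array left out lay between -0.13 and 0.073 for CDK4 and si-A1, between -0.20 and 0.020 for CDK4 and si-A2, and between -0.22 and 0.030 for CCND3 and si-A2. With the dim array kept in, values for si-A2 at 48 h became 0.24 (CCND3 against si-SCRL), -0.50 (CCND1 against si-A1), 0.31 (CCND3 against si-A1) and -0.64 (CDK4 against si-A1), and the change of the si-A2 effect over time became -0.52 for CCND1 and 0.32 for CCND3. CDK6 relative to CDK4 after si-A2 became -0.051 with normexp and -0.063 with no background correction at 24 h, and lay between -0.032 and 0.16 with an array left out at 48 h. The cause of these changes was not tested, and a level near background, as for CDK6, limits what these arrays can show.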

Other observations

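On the array of 48 h si-A2 replicate 2, which entered no comparison, the members read unlike each other. The processed intensity of CCND1 was 4.79 with none of its 10 spots well above background, and that of CDK4 was 54.1, while CCND3 read 290 and CCNE1 645. On the other 3 si-A2 arrays of 48 h, CCND1 read 180 to 233, CDK4 1224 to 1419, CCND3 169 to 192 and CCNE1 544 to 616. CDK2 was well above background on that array, with 34.7, and CCNE2 and CDK6 were not, with 6.31 and 1.7.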
